A study of Mus musculus with 6 samples.

Results

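Hydrogen peroxide producing enzymes of mammary defence were examined as a group of 8 genes, chosen by name from the 55487 genes of the count table. They were the secreted milk enzyme Lao1 (L-amino acid oxidase), the dual oxidases Duox1 and Duox2 with their maturation factors Duoxa1 and Duoxa2, the NADPH oxidases Nox1 and Nox4, and Cyba, the membrane subunit that Nox1 and Nox4 need. The genotype difference of some of these genes in these same libraries was known when the group was drawn up, so their values are given as a description and without a test. Of the 8 genes, 7 passed the filter on low counts and Duoxa2 did not.

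RNA was sequenced from mammary epithelial cells (MECs) of 3 wild-type (WT) and 3 IL-21isoTg mice, all BALB/c females of 10 weeks, and per the methods all virgin. IL-21isoTg mice carry a transgene for a membrane-bound isoform of the cytokine IL-21 that is expressed in T cells, and WT mice are without it. MECs were what remained of a digested gland after magnetic removal of cells with CD45 (leukocytes), CD31 (endothelium) or CD140a (fibroblasts), so they were not sorted on an epithelial marker. Each mouse gave 1 poly(A)-selected library, and mice are numbered 1 to 3 within a genotype, as in the labels.

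Total counts lay between 15902886 and 25719244 per library, at which 3 counts, taken as the floor, correspond to 0.112 to 0.280 CPM (CPM being counts scaled to a common library size after TMM normalization). The floor covers counting error only. All 12 luminal and all 9 basal epithelial markers passed the filter. Summed leukocyte markers reached only 7.35 to 16.8 CPM in WT and 12.3 to 19.8 CPM in IL-21isoTg mice. A list of 14 salivary gland genes, led by Bpifa2, took 4.89% to 40.9% of the counts of a library, with the highest share in IL-21isoTg mouse 3. TMM factors were 0.675 for IL-21isoTg mouse 3 and 1.11 for WT mouse 3. CPM of IL-21isoTg mouse 3 therefore stand higher beside those of WT mouse 3 than under scaling by total counts. The transgene's own gene, Il21, had 0, 0 and 37 counts in WT mice 1 to 3 and 795, 216 and 131 counts in IL-21isoTg mice 1 to 3, so WT mouse 3 was not free of it. Mice also have Il21 of their own, and these counts do not separate it from the transgene. In CPM, Il21 was at 1.66 in WT mouse 3 and at 8.04 to 33.1 in IL-21isoTg mice. WT mouse 3 had the highest Lao1, Duox1 and milk protein levels among WT mice too. Whether its genotype label is right cannot be checked from these counts, and the source of its Il21 counts was not tested. The members' log2 fold changes are therefore also given without WT mouse 3 and without IL-21isoTg mouse 3.

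Hydrogen peroxide is a weak antimicrobial by itself, and peroxidases such as lactoperoxidase use it to oxidize thiocyanate to a stronger one. Lao1 releases it extracellularly while deaminating free L-amino acids, and in mouse milk this enzyme is known for restricting bacteria. Dual oxidases sit in the apical membrane of epithelia and release hydrogen peroxide into the lumen. They need a maturation factor to leave the endoplasmic reticulum, and the usual partner is Duoxa1 for Duox1 and Duoxa2 for Duox2. Nox4 releases mostly hydrogen peroxide, Nox1 makes superoxide that superoxide dismutases turn into hydrogen peroxide, and both are stabilized by p22phox, the product of Cyba.

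The 4 dual oxidase genes form 1 cluster on chromosome 2 of GRCm38, with both maturation factors between the oxidases. Duox2 (ENSMUSG00000068452) spans chr2:122279247-122298449 on the minus strand, and Duoxa2 (ENSMUSG00000027225) spans chr2:122298900-122302885 on the plus strand. Their start sites face away from each other and lie 451 bp apart. Duoxa1 (ENSMUSG00000027224) spans chr2:122302191-122313730 on the minus strand, and Duox1 (ENSMUSG00000033268) spans chr2:122315672-122347972 on the plus strand. Those start sites are 1942 bp apart, also head to head, and the whole cluster takes 68726 bp. The 2 maturation factors meet tail to tail and share 682 bp of exon on opposite strands. The library kit keeps the strand, but whether the counting used it is not given in the sources used here. Reads from these 682 bp could therefore have been given to either gene or to neither. Duox1 and Duox2 are close paralogs with 33 exons each in their longest coding transcripts, and reads from stretches they share may have been lost or split.

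Promoters of the 5 genes on which the comparison turns are printed here as 300 bp of RefSeq sequence on GRCm38.p6, from 250 bases before to 50 bases after the RefSeq start site. Each is shown 5′ to 3′ on the strand of its gene, with capitals where a searched motif matched.
Lao1 (chr4:118961717-118962016, plus strand): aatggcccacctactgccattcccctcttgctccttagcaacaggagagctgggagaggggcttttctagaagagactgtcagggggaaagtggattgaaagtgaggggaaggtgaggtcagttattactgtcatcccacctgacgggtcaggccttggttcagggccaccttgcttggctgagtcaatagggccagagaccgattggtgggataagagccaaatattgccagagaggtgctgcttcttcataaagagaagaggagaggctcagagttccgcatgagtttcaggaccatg
Duox1 (chr2:122315422-122315721, plus strand): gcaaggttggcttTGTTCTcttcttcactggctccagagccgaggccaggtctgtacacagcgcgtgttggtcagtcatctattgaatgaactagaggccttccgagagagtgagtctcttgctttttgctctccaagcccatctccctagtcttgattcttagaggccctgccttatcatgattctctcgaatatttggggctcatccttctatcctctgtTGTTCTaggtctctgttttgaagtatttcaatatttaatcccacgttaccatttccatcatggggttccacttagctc
Duoxa1 (chr2:122313681-122313980, minus strand): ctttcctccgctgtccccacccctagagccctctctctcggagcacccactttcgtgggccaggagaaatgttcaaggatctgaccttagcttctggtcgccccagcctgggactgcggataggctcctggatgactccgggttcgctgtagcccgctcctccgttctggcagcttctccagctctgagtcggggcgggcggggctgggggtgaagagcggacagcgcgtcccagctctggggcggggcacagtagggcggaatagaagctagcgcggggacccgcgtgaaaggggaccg
Duox2 (chr2:122298178-122298477, minus strand): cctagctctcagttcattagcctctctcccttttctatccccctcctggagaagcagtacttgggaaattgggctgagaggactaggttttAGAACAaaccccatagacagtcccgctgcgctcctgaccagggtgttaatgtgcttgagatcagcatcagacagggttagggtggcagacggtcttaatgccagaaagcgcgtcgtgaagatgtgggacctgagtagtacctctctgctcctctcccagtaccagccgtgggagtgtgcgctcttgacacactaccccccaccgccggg
Duoxa2 (chr2:122298650-122298949, plus strand): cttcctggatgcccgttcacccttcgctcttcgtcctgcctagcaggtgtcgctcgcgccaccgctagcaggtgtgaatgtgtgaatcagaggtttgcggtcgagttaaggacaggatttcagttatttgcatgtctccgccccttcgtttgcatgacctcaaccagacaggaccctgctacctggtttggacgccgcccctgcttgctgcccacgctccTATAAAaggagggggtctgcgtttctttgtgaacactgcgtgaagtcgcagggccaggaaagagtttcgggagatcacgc

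Both strands of all 8 promoters were searched for 5 letter patterns of factors active in mammary or cytokine-driven transcription or at core promoters. They were TTCNNNGAA of STAT factors, TTGCNNAA of C/EBP factors, TGTTCT of steroid receptors, TATAAA of the TATA box and GGAAGT of ETS factors. TGTTCT stood at -237 to -232 and again at -28 to -23 of the Duox1 promoter, and on the opposite strand at -159 to -154 of the Duox2 promoter. Of 32851 promoters of this length, 19% held it. TATAAA stood at -30 to -25 of the Duoxa2 promoter, and 13.6% of all promoters held it. The promoters of Lao1 and Duoxa1 had no match to any of the 5 patterns. TTCNNNGAA and GGAAGT, found in 8.3% and 23.8% of all promoters, matched among the 8 genes only that of Nox4, where the matches overlap. TTGCNNAA, found in 10.8%, matched none. GC content was 52.7% for Lao1, which is also the median of all promoters, and 65.7% for Duoxa1, above the upper quartile of 61.7%. For Duox1 it was 46.7%, for Duox2 55.3% and for Duoxa2 56.7%. The RefSeq start of Lao1 lies 389 bp from the outermost GENCODE start, and that of Duox2 222 bp, so the printed window is not the only annotated promoter. For the promoters searched but not printed, this distance was 553 bp for Nox4, 110102 bp for Nox1 and 10 bp for Cyba.

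Lao1 (ENSMUSG00000024903, chr4:118961578-118968912, plus strand) was low in WT MECs and far higher in IL-21isoTg MECs. WT mice 1 to 3 had 11, 18 and 148 counts, and IL-21isoTg mice 1 to 3 had 4121, 4074 and 577. In CPM these were 0.496, 0.865 and 6.66 against 171, 152 and 53.8. The groups did not overlap, with IL-21isoTg mouse 3 still 8.08 times as high as WT mouse 3. Scaled by total counts alone, without TMM factors, this factor would be smaller. Mean levels were 2.67 ± 3.46 CPM (SD, n = 3 mice) and 126 ± 62.9 CPM (SD, n = 3), a ratio of 47.0, and the fitted log2 fold change was 5.55 (standard error 0.97). WT mouse 3 decided much of the WT mean. Without it the log2 fold change was 7.52, without IL-21isoTg mouse 3 it was 5.92, and without both it was 7.89 as a ratio of mean CPM.

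Duox1 was higher in every IL-21isoTg mouse than in any WT mouse. Its counts were 52, 82 and 174 in WT mice 1 to 3 and 1144, 1134 and 180 in IL-21isoTg mice 1 to 3. IL-21isoTg mouse 3, the shallowest library and the one with most salivary gland counts, came close to WT mouse 3 in raw counts, and the normalized values were 2.35, 3.94 and 7.83 CPM against 47.6, 42.2 and 16.8 CPM. Between the closest mice of the genotypes the gap was still 2.14-fold. Part of it comes from the TMM factors of these mice, 0.675 for IL-21isoTg mouse 3 and 1.11 for WT mouse 3. Scaled by total counts alone it would be smaller. Means of 4.70 ± 2.82 CPM (SD, n = 3) and 35.5 ± 16.4 CPM (SD, n = 3) gave a ratio of 7.55 and a log2 fold change of 2.92 (standard error 0.53). This was 3.50 without WT mouse 3 and 3.26 without IL-21isoTg mouse 3. Without both it was 3.84, taken from the ratio of mean CPM and not from a fit.

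Its maturation factor Duoxa1 differed in the same direction and by less. WT mice had 4.06, 3.46 and 4.32 CPM, on 90, 72 and 96 counts, and IL-21isoTg mice had 19.3, 18.6 and 9.89 CPM, on 464, 500 and 106 counts. The WT mice lay close together here, WT mouse 3 included, and the groups did not overlap. Means were 3.95 ± 0.441 CPM (SD, n = 3) and 15.9 ± 5.25 CPM (SD, n = 3), a ratio of 4.04 with a log2 fold change of 2.02 ± 0.30 (SE). The lowest IL-21isoTg value was 2.29 times the highest WT value, and scaled by total counts alone this gap too would be smaller. The log2 fold change was 2.09 without WT mouse 3 and 2.27 without IL-21isoTg mouse 3. Without both it was 2.33, again from the ratio of mean CPM.

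Duox2, at the other end of the cluster, was low in both genotypes and overlapped between them. Counts were 33, 25 and 11 in WT mice and 35, 28 and 9 in IL-21isoTg mice, or 1.49, 1.20 and 0.495 CPM against 1.46, 1.04 and 0.839 CPM. Mouse 3 was the lowest of each genotype. Means of 1.06 ± 0.511 CPM and 1.11 ± 0.314 CPM (SD, n = 3 each) gave a log2 fold change of 0.08 (standard error 0.55), which turned to -0.26 without WT mouse 3 and to -0.16 without IL-21isoTg mouse 1, and was 0.24 without IL-21isoTg mouse 3. Its direction is thus not settled by these 6 mice. Duoxa2 was hardly detected, with 1 count in each WT mouse and 5, 2 and 5 counts in the IL-21isoTg mice. The 12 counts against 3, pooled over the mice of a genotype, gave a ratio of 4.23 per effective library. Its exact 95% interval of 1.14 to 23.4 covers counting error only. It leaves out the spread between mice, so it is no test of the genotypes. WT mice were below the floor of 3 counts, and the exon bases that Duoxa2 shares with Duoxa1, which had 72 to 500 counts, leave the source of so few counts uncertain.

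**Figure D1:**
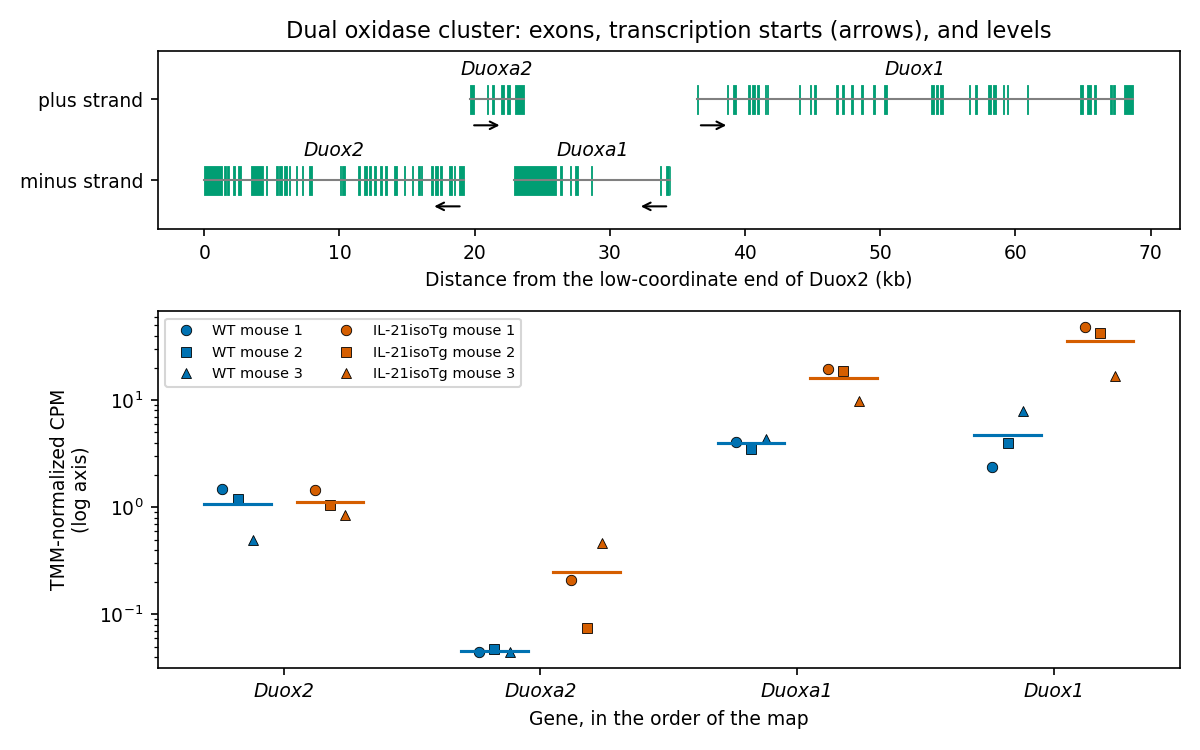
The dual oxidase cluster: exons of the 4 genes on each strand against distance in kb (upper panel, arrows mark transcription starts), and the TMM-normalized CPM of each mouse on a log axis (lower panel, bars mark group means, blue WT, orange IL-21isoTg). Duoxa1 and Duox1, on the right of the map, separate the genotypes, with 3.95 against 15.9 CPM and 4.70 against 35.5 CPM, while Duox2 does not, with 1.06 against 1.11 CPM.

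Ratios within a library do not depend on normalization, and they showed the same contrast between the 2 oxidase genes. Duox1 had 1.58, 3.28 and 15.8 times the counts of Duox2 in WT mice 1 to 3 and 32.7, 40.5 and 20.0 times in IL-21isoTg mice 1 to 3. The lowest IL-21isoTg ratio was above the highest WT ratio, with WT mouse 3 the closest. These closest ratios rest on 11 Duox2 counts in WT mouse 3 and 9 in IL-21isoTg mouse 3. Counting error therefore weighs on the gap between them. The counts of Duox1 per count of Duoxa1 were 0.578, 1.14 and 1.81 in WT mice and 2.47, 2.27 and 1.70 in IL-21isoTg mice, where WT mouse 3 lay above IL-21isoTg mouse 3. The oxidase and its maturation factor therefore kept no fixed proportion, and the proportions overlapped between genotypes.

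The NADPH oxidase members overlapped between the genotypes. Cyba (ENSMUSG00000006519, chr8:122424776-122432930, minus strand) had 42.4, 34.1 and 33.6 CPM in WT mice and 56.8, 54.2 and 31.3 CPM in IL-21isoTg mice. IL-21isoTg mouse 3 was the lowest of all 6 mice, while the other two IL-21isoTg mice were the highest. Means of 36.7 ± 4.92 and 47.4 ± 14.0 CPM (SD, n = 3 each) gave a log2 fold change of 0.37 (standard error 0.24), which was 0.61 without IL-21isoTg mouse 3 and 0.31 without WT mouse 3.

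Nox4 (ENSMUSG00000030562, chr7:87246096-87398710, plus strand) had counts of 149, 233 and 220 in WT mice and 352, 392 and 117 in IL-21isoTg mice. Normalized means were 9.27 ± 2.30 and 13.4 ± 2.14 CPM (SD, n = 3 each), a log2 fold change of 0.53 (standard error 0.26), or 0.58 without WT mouse 3 and 0.66 without IL-21isoTg mouse 3. The groups overlapped in 1 pair of mice, with 10.9 CPM in IL-21isoTg mouse 3 and 11.2 CPM in WT mouse 2. Nox1 (ENSMUSG00000031257, chrX:134086421-134221956, minus strand) was the only member with a fitted level below that of WT, with 3.06 ± 0.888 CPM in WT and 2.16 ± 0.588 CPM in IL-21isoTg mice (SD, n = 3 each) and a log2 fold change of -0.50 (standard error 0.40), or -0.71 without WT mouse 3 and -0.49 without IL-21isoTg mouse 3. These groups overlapped too, on 84, 69 and 46 counts against 38, 74 and 23. Nox1 shares 399 bp of exon with Cstf2, an mRNA 3′ end processing factor on the opposite strand. Cstf2 had 274 to 932 counts per mouse, 37.9 ± 4.20 CPM in WT and 26.5 ± 2.20 CPM in IL-21isoTg mice (SD, n = 3 each), with a log2 fold change of -0.52 (adjusted p = 0.809, edgeR), and its part in the few Nox1 counts was not tested.

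**Figure D2:**
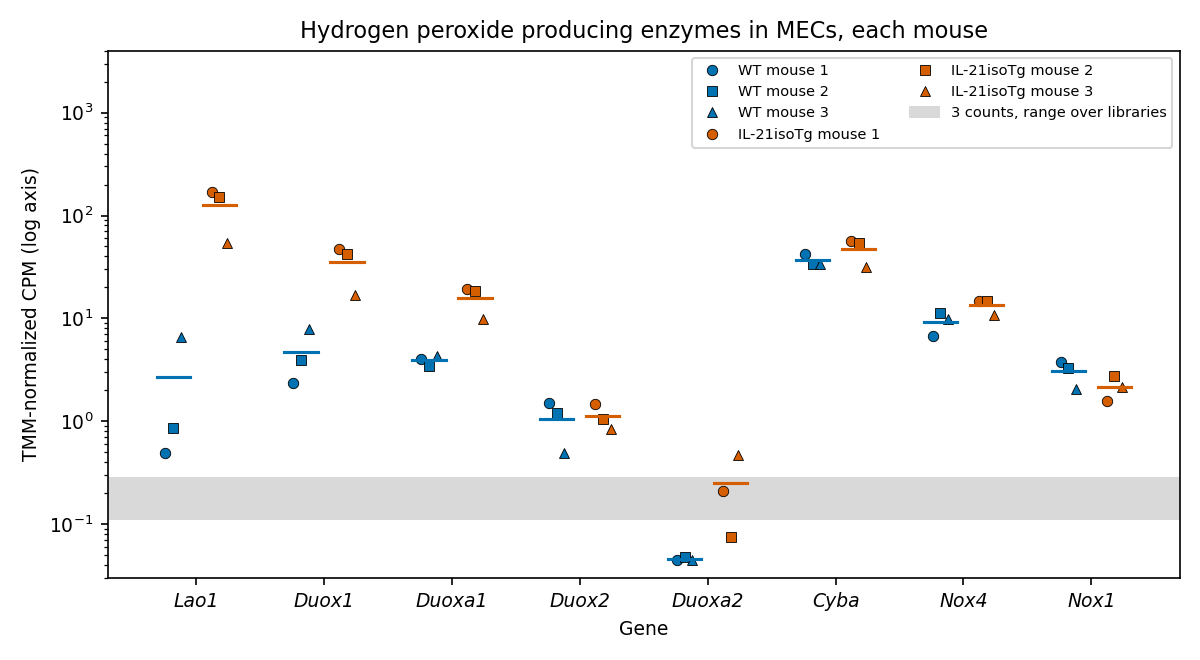
TMM-normalized CPM of the 8 genes in each of the 6 mice, on a log axis (horizontal bars are means of 3 mice, blue WT, orange IL-21isoTg), with the range that 3 counts correspond to shaded. Lao1, Duox1 and Duoxa1 lie higher in all 3 IL-21isoTg mice, with a spread among WT mice of 0.496 to 6.66 CPM for Lao1. Duox2, Cyba, Nox4 and Nox1 overlap, and the 3 WT values of Duoxa2 lie under the shaded floor.

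Counted together, 6 of the 7 members that passed the filter had a fitted log2 fold change above 0 and 3 of them, Lao1, Duox1 and Duoxa1, had groups that did not overlap, all 3 with IL-21isoTg above WT. Among all 17165 genes tested, 47.9% had a fitted value above 0 5.54% had IL-21isoTg mice all above WT mice, and 6.54% the reverse. Nothing is read from the difference, since the members were chosen with this contrast in view. In the fit over all genes, the quasi-likelihood test of edgeR, adjusted by Benjamini-Hochberg, called 0 genes higher and 0 lower, 0% of those tested. At an unadjusted p under 0.05 it had 548 genes higher, 3.19%, and 451 lower, 2.63%, together 5.82%. DESeq2 called 72 higher, 0.419%, and 8 lower, 0.0466%, together 0.466%. In bulk RNA, a larger share of cells that express a gene cannot be told apart from more RNA per cell.

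Levels of different genes are compared per length, as CPM per kb of annotated exon. The length used is the union of a gene's annotated exons, which is 8471 bp for Nox4, whose longest coding transcript has 3753 bp. For Duox1 both lengths are 5267 bp, so the place of Nox4 among the members depends on this choice. In WT MECs Cyba was highest, with 35.3 ± 4.74 CPM per kb (SD, n = 3), and no other member reached its range. Nox4, Lao1, Duoxa1, Nox1 and Duox1 followed with mean levels of 0.893 to 1.09 CPM per kb, each overlapping its neighbour in the order. Duox2 came below them with 0.157 ± 0.0755 CPM per kb, and Duoxa2 last with 0.0289 CPM per kb. The place of Lao1 rested on WT mouse 3, at 2.62 CPM per kb. Without that mouse the mean of Lao1 was 0.268 instead of 1.05 CPM per kb and that of Duox1 0.597 CPM per kb, and Lao1 stood sixth, below Nox1, Nox4, Duoxa1 and Duox1.

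In IL-21isoTg MECs Lao1 stood at 49.5 ± 24.8 CPM per kb and overlapped Cyba at 45.7 ± 13.5 CPM per kb (SD, n = 3 each). Duox1 at 6.74 ± 3.12 and Duoxa1 at 4.01 ± 1.32 CPM per kb overlapped each other. By the union of exons they lay clear of Nox4 at 1.58 ± 0.252 CPM per kb. Nox1 at 0.653 CPM per kb was next, and Duox2 and Duoxa2, at 0.164 and 0.157 CPM per kb, overlapped at the bottom. Without IL-21isoTg mouse 3 the order was the same, with 63.6 CPM per kb for Lao1, 53.4 for Cyba and 8.52 for Duox1.

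**Figure D3:**
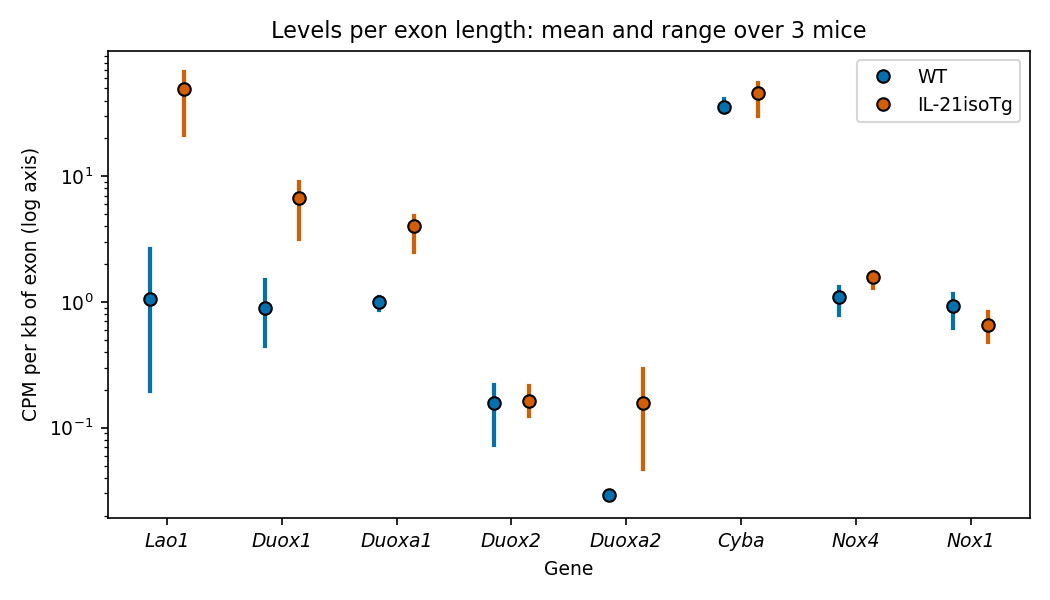
CPM per kb of exon for each member on a log axis (points are means, lines run from the lowest to the highest of 3 mice, blue WT, orange IL-21isoTg). Cyba has 35.3 CPM per kb in WT and 45.7 in IL-21isoTg MECs, and Lao1 has 1.05 and 49.5 CPM per kb, where the WT mean rests on WT mouse 3 (0.268 CPM per kb without it).

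The order of single mice was the same for Lao1 and Duox1. IL-21isoTg mouse 1 was highest, then IL-21isoTg mice 2 and 3, WT mouse 3, WT mouse 2 and WT mouse 1, and Duoxa1 differed only in the order of the last 2. Over the 6 mice, which fall into 2 genotypes and so share that contrast, Pearson's r of log2 CPM was 0.988 for Lao1 with Duox1. Fewer than 5 of 17164 other genes were more like Lao1. Pearson's r was 0.958 for Duox1 with Duoxa1 but -0.017 for Duox1 with Duox2. The genes most like Lao1 were Slc43a2 (r = 0.995), an amino acid transporter, the α-lactalbumin gene Lalba (0.990) and Rgs8 (0.989). Those most like Duox1 were Dad1 (0.995), a subunit of the oligosaccharyl transferase, Spp1 (0.992), which encodes osteopontin, and Mocs1 (0.988). For Duoxa1 they were Rapgef5 (0.994), the glycine decarboxylase gene Gldc (0.993) and Cel (0.991), the bile salt-stimulated lipase of milk.

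Members outside this trio had other neighbours in pattern. For Duox2 they were Col17a1 (r = 0.992), a hemidesmosomal collagen of basal cells, Gm44323 (0.981) and Cdh10 (0.970), on few Duox2 counts. Nox4 was most like Gm45051, Trf, the transferrin gene, and Atrn, at 0.993 each. Cyba was most like Fgf23 (0.996), the prostaglandin receptor gene Ptger4 (0.992) and Lgr4 (0.989), and Nox1 most like Rps4x-ps (0.988), Lrch2 (0.985) and Dctd (0.977). Each of these is the top of 17164 genes ranked over only 6 mice.

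Genes next to the members were examined for the same contrast with edgeR's quasi-likelihood test over all genes. Shf, an SH2 adaptor gene that ends 919 bp beyond Duox1, had 14.4 to 19.3 CPM in WT and 13.2 to 26.8 CPM in IL-21isoTg mice (log2 fold change 0.33 ± 0.28 SE, adjusted p = 0.845). Sord, the sorbitol dehydrogenase gene on the Duox2 side, had 20.3 to 35.2 and 19.3 to 26.8 CPM (log2 fold change -0.13 ± 0.26 SE, adjusted p = 0.94). Neither gene flanking the cluster passed the test, but no gene of the 17165 tested did, so this does not set them apart. The groups overlapped for both. Slc2a1, which encodes the glucose transporter GLUT1 and is the nearest gene beyond Lao1 at 139798 bp, had 101 to 163 CPM in WT and 99.9 to 183 CPM in IL-21isoTg mice (0.27 ± 0.28 SE, adjusted p = 0.871). On the other side of Lao1, Olfr1328 had 0 to 7 counts and was not tested. Beside Cyba, Il17c, an epithelial cytokine gene, had 2, 2 and 10 counts in WT mice and 29, 31 and 2 in IL-21isoTg mice, with overlapping groups (log2 fold change 2.02, standard error 0.90, adjusted p = 0.809), and Mvd had 0.31 (adjusted p = 0.878). The nearest genes of Nox1, Trmt2b and Sytl4, had 0.03 and 0.04 (adjusted p = 0.988 and 0.989), and those of Nox4, Vmn2r79 and Tyr, had too few counts to be tested.

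Other values of the libraries moved with Lao1, Duox1 and Duoxa1. The summed level of 8 milk protein genes, led by Csn2, was 538, 523 and 1733 CPM in WT mice and 20366, 15762 and 8818 CPM in IL-21isoTg mice, the same order of mice as for Duoxa1. For all 8 milk genes every IL-21isoTg mouse was above every WT mouse. Lao1 had 0.0710, 0.0544 and 0.205 counts per Lalba count in WT mice and 0.866, 0.607 and 0.405 in IL-21isoTg mice, which did not overlap. The same held per count of Csn1s1 and Csn3, 3 of the 8 milk genes in all, while the ratios to Csn2, Csn1s2a, Csn1s2b, Wap and Glycam1 overlapped between the genotypes. Per count of Csn2, for example, Lao1 had 0.0343, 0.0861 and 0.0128 counts in WT mice and 0.0239, 0.0285 and 0.0193 in IL-21isoTg mice. The part of the milk protein program in these results was not tested.

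Fibroblast markers summed to 2211 to 3959 CPM in WT and 4875 to 5483 CPM in IL-21isoTg mice, led by Col3a1, and 4 of the 9 separated the genotypes with IL-21isoTg above. Endothelial markers gave 112 to 266 and 164 to 384 CPM, basal markers 1733 to 2179 and 1889 to 3244 CPM, and luminal markers 7186 to 8504 and 6143 to 10403 CPM, each with overlap. Of these lists 1 of 8, 0 of 9 and 1 of 12 genes separated with IL-21isoTg above, beside 5.54% of all genes tested. None of the genes in these lists was at 0 in any mouse. Fitted log2 fold changes were above 0 for all 8 endothelial, 8 of 9 basal, 8 of 9 fibroblast and 7 of 12 luminal markers. Their medians were 0.83, 0.51, 0.57 and 0.04. Of all genes tested 47.9% were above 0, with a median of -0.019. Adipocyte markers spanned 25.8 to 68.4 CPM in WT and 32.1 to 329.5 CPM in IL-21isoTg mice. Adipoq, Lep, Cidec and Retn were at 0 in at least 1 mouse. Of the 7 only Lep separated, on 0, 6 and 0 against 16, 12 and 7 counts, and it did not pass the filter. All 4 adipocyte markers tested had a fitted log2 fold change above 0, with a median of 2.98. The part of these cells in the results on Lao1, Duox1 and Duoxa1 was not tested.

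Phagocytes carry Cyba and make superoxide with another NADPH oxidase, so their markers stand beside Cyba. They summed to 171 to 231 CPM in WT and 150.3 to 369.9 CPM in IL-21isoTg mice, mostly from Cd14, and 0 of 12 separated the genotypes. Adgre1, Itgam, Fcgr1, Mrc1, S100a9 and Ly6g were at 0 in at least 1 mouse. Of 8 leukocyte markers 0 separated the genotypes, and Ms4a1 was at 0 in at least 1 mouse. The part of phagocytes in the Cyba values was not tested. Salivary gland genes summed to 229951, 53686 and 141571 CPM in WT mice and 239905, 41972 and 606464 CPM in IL-21isoTg mice. Of the 14 genes 1 separated the genotypes. All 12 that were tested had a fitted log2 fold change above 0, with a median of 1.00. With the summed salivary gland level as a covariate the log2 fold changes of Lao1, Duox1 and Duoxa1 were 5.59, 3.01 and 2.05.

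**Figure D4:**
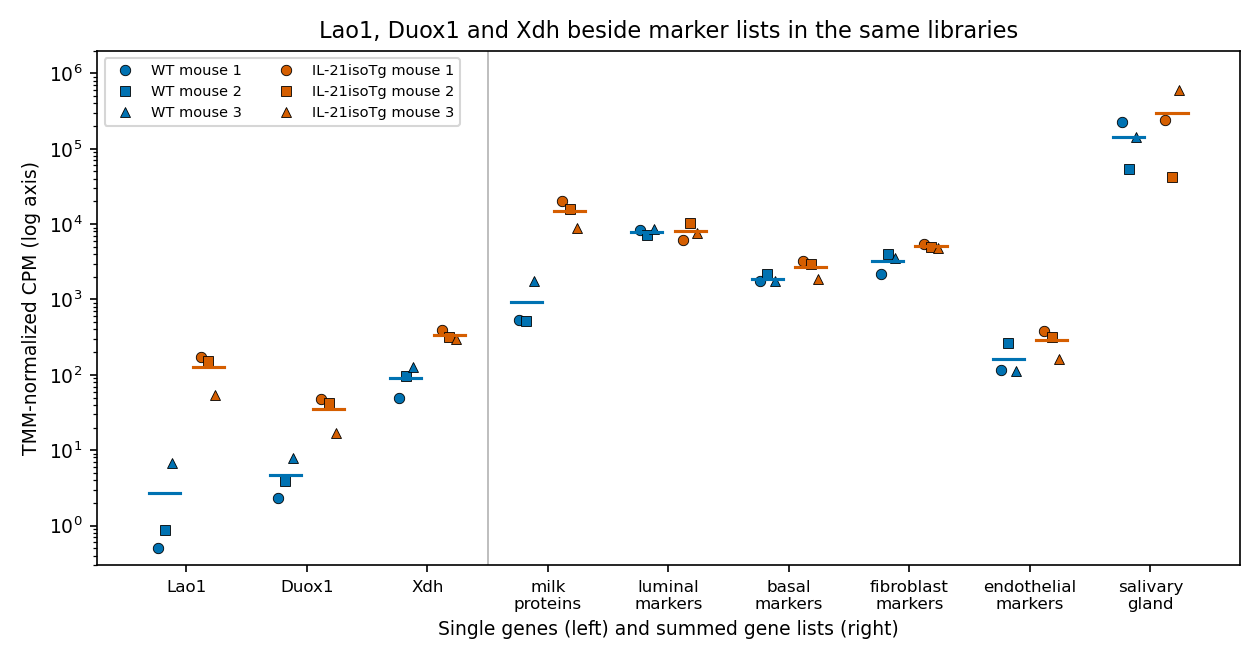
TMM-normalized CPM in each mouse on a log axis for Lao1, Duox1 and Xdh (left of the line) and for summed lists of milk protein, luminal, basal, fibroblast, endothelial and salivary gland genes (right), with bars at the means of 3 mice, blue WT and orange IL-21isoTg. The milk protein sum separates the genotypes, 523 to 1733 against 8818 to 20366 CPM, while the luminal markers, 7186 to 8504 against 6143 to 10403 CPM, and the salivary gland genes overlap.

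The rest of the hydrogen peroxide pathway was read from the same fit in 5 lists that hold no member, 75 genes of which 61 were tested. None passed at an adjusted p under 0.05 in edgeR's quasi-likelihood test, which none of all 17165 genes tested passed. At an unadjusted p under 0.05 there were 5 higher (Xdh, Lox, Loxl1, Loxl2 and Gpx7) and 0 lower. Over all genes tested these shares were 3.19% and 2.63%. DESeq2 called 1 higher, Xdh, and 0 lower, beside 0.419% and 0.0466% of all genes tested. Fitted values were above 0 for 34 and below 0 for 27, with a median of 0.02 beside -0.019 over all genes tested. Lists were also drawn up with results of these data known.

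Other oxidases that form hydrogen peroxide had 27 of 33 genes tested, 16 fitted higher and 11 lower, with a median log2 fold change of 0.19. Xdh, xanthine oxidoreductase, is a major protein of the milk fat globule membrane and, in its oxidase form, makes hydrogen peroxide from purines. It had 49.7, 95.7 and 129 CPM in WT mice and 394, 316 and 301 CPM in IL-21isoTg mice. All IL-21isoTg mice were above all WT mice, with means of 91.6 ± 40.0 and 337 ± 50.1 CPM (SD, n = 3 each). On the log2 scale the fold change was 1.88 ± 0.33 (SE), and it did not pass the main test (adjusted p = 0.412, edgeR), while DESeq2 gave an adjusted p of 4.07e-05. WT mouse 3 was again the highest WT mouse, and without it the value was 2.21.

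Of 7 amine and polyamine oxidase genes, 3 had fitted values above 0 and 4 below, and all overlapped. Aoc1, diamine oxidase, had 0.0902 to 10.6 CPM in WT and 7.37 to 32.9 CPM in IL-21isoTg mice, with overlap (log2 fold change 1.71 ± 1.07 SE, adjusted p = 0.816, edgeR). This was 0.84 without IL-21isoTg mouse 2, 1.14 without WT mouse 1, 2.70 without WT mouse 2 and 3.14 with limma-voom. Smox, spermine oxidase, had 33.9 to 121 and 56.3 to 141 CPM (log2 fold change 0.56 ± 0.50 SE, adjusted p = 0.854, edgeR), and 1.28 without WT mouse 1. The third with a value above 0 was Aoc3 at 0.53, and those below were Paox at -0.19, Maoa at -0.38, Maob at -0.44 and Aoc2 at -0.62 (adjusted p = 0.809 to 0.893, edgeR). Lysyl oxidases cross-link collagen and elastin and release hydrogen peroxide doing so. Of their 5 genes, Lox, Loxl1 and Loxl2 separated the genotypes, for example with 20.1 to 29.6 CPM of Loxl1 in WT and 37.5 to 51.5 CPM in IL-21isoTg mice. On the log2 scale they differed by 1.13, 0.78 and 0.85 (edgeR, adjusted p = 0.809, 0.782 and 0.757), while Loxl3 and Loxl4 overlapped, at -0.03 and -0.01 (adjusted p = 0.985 and 0.999). Fibroblasts also express such genes, and of their 9 markers 4 separated with IL-21isoTg above, while Dcn had a fitted -0.27. The part of fibroblasts was not tested.

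Of 5 peroxidases, which consume hydrogen peroxide, 2 were tested. Lpo, lactoperoxidase, is the enzyme of milk and saliva that pairs with these oxidases. It had 764, 219 and 485 CPM in WT mice and 964, 233 and 1898 CPM in IL-21isoTg mice. Mouse 2 was lowest in both genotypes, the groups overlapped, and within each genotype the mice ranked as they did for the salivary gland sum. The fitted log2 fold change, 1.08 ± 0.71 SE (adjusted p = 0.82, edgeR), was 0.31 with the salivary gland level as a covariate and also 0.31 without IL-21isoTg mouse 3. Pxdn, peroxidasin, which acts on basement membrane collagen, had -0.13 (standard error 0.21, adjusted p = 0.924, edgeR).

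Other NADPH oxidase genes, a list of oxidases and partner proteins, had 9 of 12 genes tested. Of these, 4 were fitted higher and 5 lower, with a median log2 fold change of -0.09. Noxo1, the organizer that Nox1 binds, had 13.1 to 20.7 CPM in WT and 13.3 to 15.1 CPM in IL-21isoTg mice, a log2 fold change of -0.13 (adjusted p = 0.935, edgeR). The small GTPase genes Rac1 and Rac3 had -0.09 and -0.24 (adjusted p = 0.94 and 0.877, edgeR). All 3 overlapped between the genotypes.

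Enzymes that remove hydrogen peroxide had 20 of 22 genes tested, 10 fitted higher and 10 lower, with a median log2 fold change of -0.04. The secreted glutathione peroxidase Gpx3 had 305, 1499 and 964 CPM in WT mice and 1553, 2619 and 829.6 CPM in IL-21isoTg mice (log2 fold change 0.85 ± 0.60 SE, adjusted p = 0.827, edgeR). The groups overlapped, and IL-21isoTg mouse 3 lay below 2 WT mice. Glrx, glutaredoxin, had 0.73 (standard error 0.34, adjusted p = 0.809, edgeR), and Gpx1, the cytosolic glutathione peroxidase, had 0.18 (standard error 0.16, adjusted p = 0.859, edgeR). Among genes of lower level, Gpx7, an endoplasmic reticulum peroxidase, had 0.78 ± 0.33 SE, and Gpx2, a glutathione peroxidase of epithelia, had -1.53 ± 0.73 SE with overlapping groups (adjusted p = 0.809 for both, edgeR). Prdx6, a peroxiredoxin, was the only one of the list with all WT mice above all IL-21isoTg mice, at 126 ± 9.70 against 106 ± 9.62 CPM (SD, n = 3 each) and a log2 fold change of -0.26 (adjusted p = 0.809, edgeR).

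All 3 superoxide dismutase genes, which make hydrogen peroxide from superoxide, had small positive fitted values and none passed. Mitochondrial Sod2 had 98.0, 89.9 and 95.6 CPM in WT mice and 118, 105 and 112 CPM in IL-21isoTg mice, which did not overlap. On the log2 scale this was a difference of 0.24 ± 0.14 SE (adjusted p = 0.809, edgeR). Extracellular Sod3 had 0.41 and cytosolic Sod1 0.15 (adjusted p = 0.851 and 0.888, edgeR), both with overlap.

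**Figure D5:**
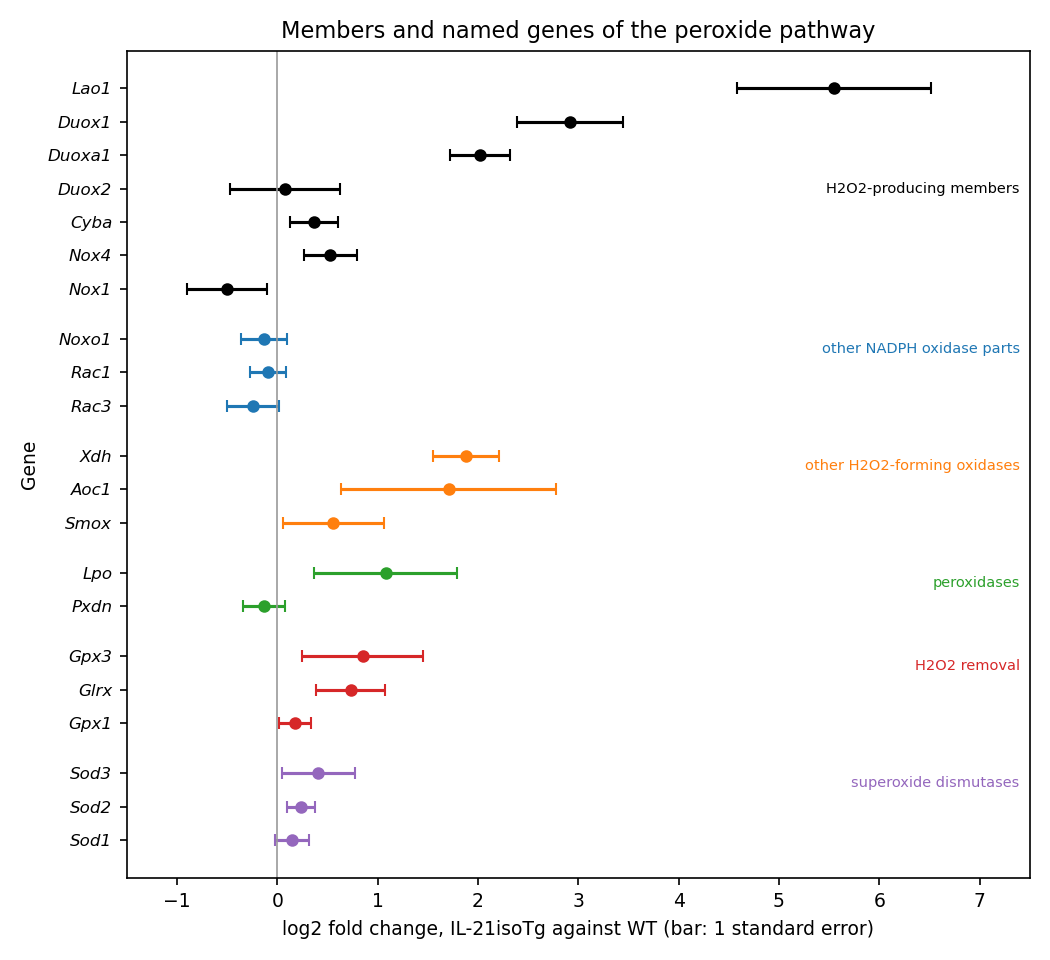
Fitted log2 fold change of IL-21isoTg against WT MECs for the 7 members that passed the filter (black) and for the named genes of 5 pathway lists (colours), with bars of 1 standard error from edgeR. Lao1, Duox1 and Duoxa1, at 5.55, 2.92 and 2.02, and Xdh, at 1.88, lie farthest to the right, and the superoxide dismutases lie between 0.15 and 0.41.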

How the data were processed

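RNA-seq of MECs from 3 WT and 3 IL-21isoTg mice was analysed from the count table that the authors deposited, which holds whole-number counts of reads per gene and library, without normalization. The submitters' processing notes name build mm10 and FastQC 0.11.7, Trimmomatic 0.38, HISAT2 2.1.0, SAMtools 1.9, featureCounts 1.6.3 and DESeq2 1.24.0. Annotation release and strand setting are not given in the sources used here. The table of size-factor normalized counts and the authors' comparison of the genotypes, with its fold changes and p-values, were not used, apart from the start and end of each gene that the latter table lists. The deposited positions were the same as in GENCODE M21 (GRCm38) for 31020 of 31286 shared identifiers and for all 8 genes of interest.

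Genes were filtered with filterByExpr (minimum count 10, minimum total 15), normalized with TMM and fitted with genotype as the only term by edgeR 4.0.16 (robust quasi-likelihood) in R 4.3.3. P-values were adjusted by Benjamini-Hochberg over 17165 genes at 0.05. DESeq2 1.42.0 and limma 3.58.1 were alternatives, and Python 3.11.15, scipy 1.17.1 and matplotlib 3.10.9 were used for the rest. Scripts were tested on simulated counts. Total counts were 15902886 to 25719244 per library, and a floor of 3 counts was used. P-values measure the spread between mice. Log2 CPM for likeness used a prior count of 2. The deposited counts on each gene were scaled to exon length by the union of annotated exons. Promoters came from RefSeq on GRCm38.p6, and all 8 genes matched.

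The members and all gene lists were chosen with earlier results of these data known. Genes named were the 8 members. For each pathway list they were the genes past the test, the 2 with the largest absolute log2 fold change at a mean of at least 10 CPM and the 2 with the highest CPM per kb. The 3 genes most like each member, neighbours, genes sharing exon bases and Il21 were named too. Other lysyl, amine and polyamine oxidases, Gpx2, Gpx7 and Prdx6 fall outside this rule and were named after their values were seen, as were levels per length without mouse 3 and the ratios of Lao1 to milk genes other than Lalba. Alternatives were size factors, scaling without milk protein and salivary gland genes, other filters, DESeq2, limma-voom, a replicate block, a salivary gland covariate and leaving out each mouse. No library was left out of the main fit.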

Additional observations from a re-analysis of the deposited data

How the results depend on the processing

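The number of genes called depended on the test and the filter. The quasi-likelihood test called 0 genes higher and 0 lower, also with median-of-ratios size factors, scaling without milk protein and salivary gland genes, at least 10 counts in every mouse, and limma-voom. DESeq2 called 72 higher and 8 lower, of which 1 higher, Xdh, was in the pathway lists. No filter on low counts gave 14 higher, and the salivary gland covariate gave 1 lower. With each mouse left out in turn 0 to 6 genes were called higher and 0 lower, the 6 without WT mouse 3, and among the pathway lists 0 higher and 0 lower.

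Over the settings that kept all mice, the log2 fold change was 5.55 to 6.24 for Lao1, 2.92 to 3.05 for Duox1, 1.96 to 2.05 for Duoxa1, 0.07 to 0.24 for Duox2, -0.51 to -0.47 for Nox1, 0.53 to 0.63 for Nox4 and 0.33 to 0.40 for Cyba. Requiring 10 counts in every mouse left Duox2 without a value. Leaving out single mice gave 5.07 to 7.52 for Lao1, 2.61 to 3.50 for Duox1, 1.86 to 2.27 for Duoxa1, -0.26 to 0.42 for Duox2, -0.73 to -0.31 for Nox1, 0.36 to 0.69 for Nox4 and 0.23 to 0.61 for Cyba. Without WT mouse 3 and IL-21isoTg mouse 3, a setting chosen after seeing the data, Lao1 had 7.89 and Duox1 3.84. These are log2 ratios of mean CPM and not fitted values. The median of the list of other NADPH oxidase genes, -0.09, was 0.13 without WT mouse 1. The causes were not tested.

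Deviations from the genotype mean had correlations of -0.224, 0.068 and -0.062 between same-numbered mice of the 2 genotypes. Between differently numbered mice they ran from -0.226 to 0.233. With 3 mice per genotype these values cannot tell whether the numbers pair the mice. With the replicate number as a block, 0 genes were called, 657 against 999 had an unadjusted p under 0.05, and the log2 fold changes were 6.17 for Lao1, 2.97 for Duox1 and 1.96 for Duoxa1.

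Depth limits Duoxa2, Duox2 and the WT values of Lao1, which rest on 1 to 35 counts in most mice.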
